A study of Mus musculus with 14 samples.

Results

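The comparison sets 2 culture media that both contain TGF-β against each other: the Th17 medium that the submitters call Th17_b and their medium for induced regulatory T cells, iTreg. Each medium has 2 libraries, which makes 4 of the 14 libraries in the series, and the genes described are those whose mean level in at least 1 of these media reached 1 FPKM, 10884 of 23774. FPKM counts the sequenced fragments of a transcript, scaled by its length and by the depth of the library. All cells were naive CD4+ T cells of C57BL/6 mice sorted as naive and CD25-, and all were stimulated for 3 days on plates coated with anti-CD3 and anti-CD28 at 10 μg/ml each. The Th17_b medium held TGF-β at 2 ng/ml, IL-6 at 20 ng/ml, an antibody to IFN-γ, and the antibody S4B6 to IL-2 at 10 μg/ml. The iTreg medium held TGF-β at 20 ng/ml, IL-2 at 50 U/ml and an antibody to IFN-γ. IL-6, IL-2, the antibody to IL-2 and the dose of TGF-β therefore differ together, and their shares in any difference cannot be told apart. Where another medium is given for reference it is mostly Th0, without added polarizing cytokines but with blocking antibodies against IL-2, IL-4 and IFN-γ. Total RNA came from bulk cultures, in which fewer cells of a type and less RNA per cell cannot be told apart. Whether a medium's replicates are separate animals or cultures is not in the labels, and p-values therefore measure only the spread between samples. That spread was estimated over all 14 libraries of the series, not from these 4 alone.

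TGF-β signals through a pair of receptor kinases to SMAD proteins and stands at a fork in the differentiation of naive CD4+ T cells. With IL-2, which acts through STAT5, it induces Foxp3, the transcription factor of regulatory T cells. With IL-6, which acts through gp130 and STAT3, it induces the transcription factors and cytokines of Th17 cells, which defend mucosal surfaces and take part in autoimmune inflammation. STAT3 and STAT5 are known to compete at sites of the Il17a locus.

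Most genes differed between the media, most of them by little. By limma, a linear model fitted over all tested genes, 6704 of 10884 genes (61.6%) were called at an adjusted p under 0.05, of which 4255 (39.1%) were higher and 2449 (22.5%) lower in Th17_b. All 6704 had the same direction in both replicates. Log2 changes, taken on log2(FPKM + 1) within each replicate, understate the change of low genes. A log2 change of 1 or more was reached by 1163 called genes (10.7%), 660 higher (6.06%) and 503 lower (4.62%), and 880 of them reached it in both replicates. A gene that reached 1 FPKM in 1 medium alone had to differ, so counts over lists with such genes describe the tested members only. This limit holds for each list below with such genes, also where it is not repeated. Changes of 3 or more were rare, with 40 genes higher and 32 lower. The split by direction depends on the scaling. The median change of all genes was 0.12 as deposited, 0.01 after quantile normalization and -0.01 after scaling to the median. In that order, 63.5%, 51.2% and 48.5% of the called genes were higher. List medians below are therefore to be read against 0.12, and list counts against 39.1% higher and 22.5% lower. Ribosomal protein genes, picked after their values were seen, took 24.9% and 25.4% of all FPKM in the Th17_b libraries and 34.3% and 35.3% in the iTreg libraries. Of 79 tested, 73 were lower in Th17_b, 4 higher and 2 not called, with a median change of -0.62 and no called fall of 1 or more. Their part in the shift of the other genes was not tested.

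**Figure D1:**
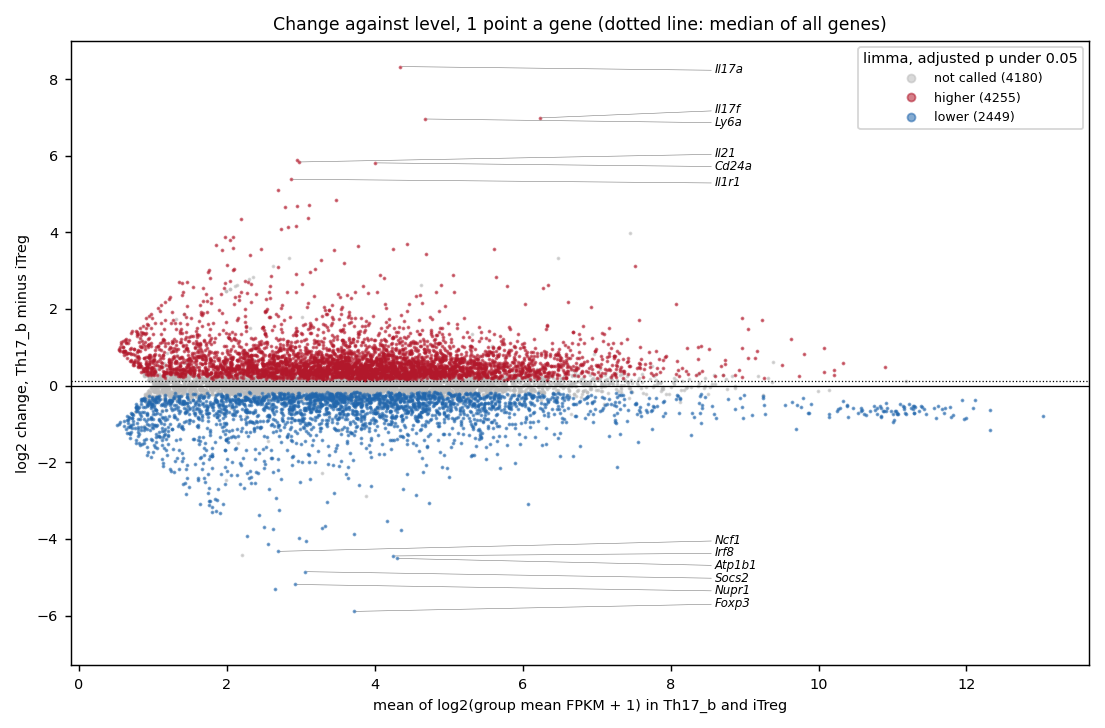
Log2 change of Th17_b minus iTreg (y axis) against the mean level of both media as log2(FPKM + 1) (x axis), with 1 point for each of 10884 genes. Red genes were called higher (4255), blue genes lower (2449) and the grey genes not called; the 6 largest rises and falls among genes with a symbol of their own are named, from Il17a at 8.33 to Foxp3 at -5.89.

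The 4 libraries were alike in depth and carried few signs of other cells. Low FPKM values were taken as multiples of what 1 read is worth. From these the depth relative to iTreg replicate 1 came to 1.07 for Th17_b replicate 1, 0.804 for iTreg replicate 2 and 0.812 for Th17_b replicate 2. In that order, 70.6%, 70.2% and 68.3% of the compared transcripts fitted ratios of whole reads. The depth was picked to bring the most transcripts to a ratio of 1, so these shares are no separate check of it. Each library listed 10394 to 10520 genes at 1 FPKM or more. The T cell genes Cd3e and Cd4 stood at 237 to 280 and 137 to 262 FPKM, while of the CD8 T cell genes Cd8a did not pass 0.0976 FPKM and Cd8b1 stood at 4.44 and 5.58 FPKM in Th17_b and at 5.04 and 4.89 in iTreg. Ms4a1 of B cells, Lyz2, S100a8 and S100a9 of myeloid cells and Klra8 of natural killer cells were listed at 0 in all 4 libraries. The summed myeloid markers were 57.15 and 52.98 FPKM in Th17_b against 151 and 137 in iTreg, nearly all of it the protease gene Ctss. Klrd1 of natural killer cells stood at 0.431 and 1.20 FPKM in Th17_b and at 4.05 and 11.0 in iTreg. The part of other cells in the results was not tested. Hmgcs1, an enzyme gene that every cell uses, was listed at 0 in all 4 libraries, so a value of 0 can be a failed estimate.

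Cytokine genes that define Th17 cells were high in Th17_b. Il17a, the signature cytokine, stood at 286 and 448 FPKM in Th17_b and at 0.211 and 0.0330 in iTreg, and had the largest rise of any gene with a symbol of its own (log2 change 8.33 ± 0.21 SE, adjusted p = 1.5e-08). Il17f, its neighbour on the chromosome and partner in the secreted heterodimer, stood at 763 and 906 FPKM in Th17_b. In iTreg it was listed at 7.24 and 4.23, above the 0.294 and 0.179 of Th0, so Il17f was present at a low level where Il17a was close to 0. Il21, which feeds back on the cells through STAT3, stood at 46.5 and 71.2 FPKM against 0.0177 and 0.0332 (5.84 ± 0.29). Il10, an anti-inflammatory cytokine, stood at 4.43 and 1.12 FPKM in Th17_b and at 0.162 and 0.0289 in iTreg (1.63 ± 0.36, adjusted p = 0.003). The size of that rise rests on Th17_b replicate 1, and it was 0.99 without it. Il22 did not pass 0.108 FPKM in any of the 4 libraries and was not tested. Of 15 genes in the list of Th17 cytokines and secreted factors, 9 were tested, 7 of them called higher and 2 lower in Th17_b. Of these 9, 4 reached 1 FPKM through Th17_b alone and so had to differ, and the counts are no measure of the whole list. Lif, a cytokine of the gp130 family, was called higher at 17.8 and 33.7 FPKM against 2.02 and 2.197 (3.04 ± 0.30), as was Ccl20, the ligand of CCR6, at 20.4 and 44.9 against 6.00 and 16.1. Tnfsf11, which encodes RANK ligand, was lower, at 0.792 and 1.63 FPKM against 8.49 and 12.4 (-2.37 ± 0.18). The other lower gene was Tnf, at 9.48 and 15.6 FPKM against 18.8 and 30.4, and its call was lost when any of the 4 libraries was left out (adjusted p 0.105 to 0.147).

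Foxp3 showed the opposite pattern. It stood at 0.752 and 0.660 FPKM in Th17_b and at 96.5 and 104.2 in iTreg, a ratio of means of 142 (log2 change -5.89 ± 0.18, adjusted p = 3.4e-08). In Th0 it stood at 0.742 and 1.83 FPKM, and Th17_b did not differ from Th0 by the test (-0.38, adjusted p = 0.098). The labels of both media are thus matched by their defining genes. The promoter of Foxp3 is shown further on with those of other genes.

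Among the transcription factors of the Th17 lineage, Maf, a factor that supports Il10 and Il21 expression, was high in both media, at 127 and 119 FPKM against 101.3 and 93.2, with 0.338 and 0.219 in Th0. Its small rise (0.33 ± 0.11, adjusted p = 0.027) missed the threshold after quantile normalization (0.18, adjusted p = 0.18) and when any of the 4 libraries was left out (adjusted p 0.076 to 0.12). Larger differences lay in other factors. Ahr, the aryl hydrocarbon receptor, stood at 85.1 and 63.5 FPKM against 2.96 and 7.45 (3.69 ± 0.30). Batf, an AP-1 family factor that opens chromatin in Th17 cells, stood at 87.3 and 91.8 FPKM against 10.2 and 12.5 (2.88 ± 0.12). Hif1a, the oxygen-sensing factor that drives glycolysis genes, stood at 201 and 203 FPKM against 29.5 and 33.8 (2.64 ± 0.08). Rora, a nuclear receptor, stood at 44.2 and 30.2 FPKM against 6.08 and 5.85 (2.43 ± 0.16). In each of these 4 genes both Th17_b libraries stood above both iTreg libraries, as for 47.2% of all tested genes. Of the 15 tested members of the list of Th17 transcription factors, 10 were higher and 2 lower, with a median change of 0.69; after quantile normalization 8 were higher and 3 lower. The lower members were Cebpb, at 1.17 and 1.92 FPKM against 4.93 and 14.4, and Runx1, at 17.3 and 12.7 against 24.9 and 21.4, whose call was lost without Th17_b replicate 2 (adjusted p = 0.0739).

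**Figure D2:**
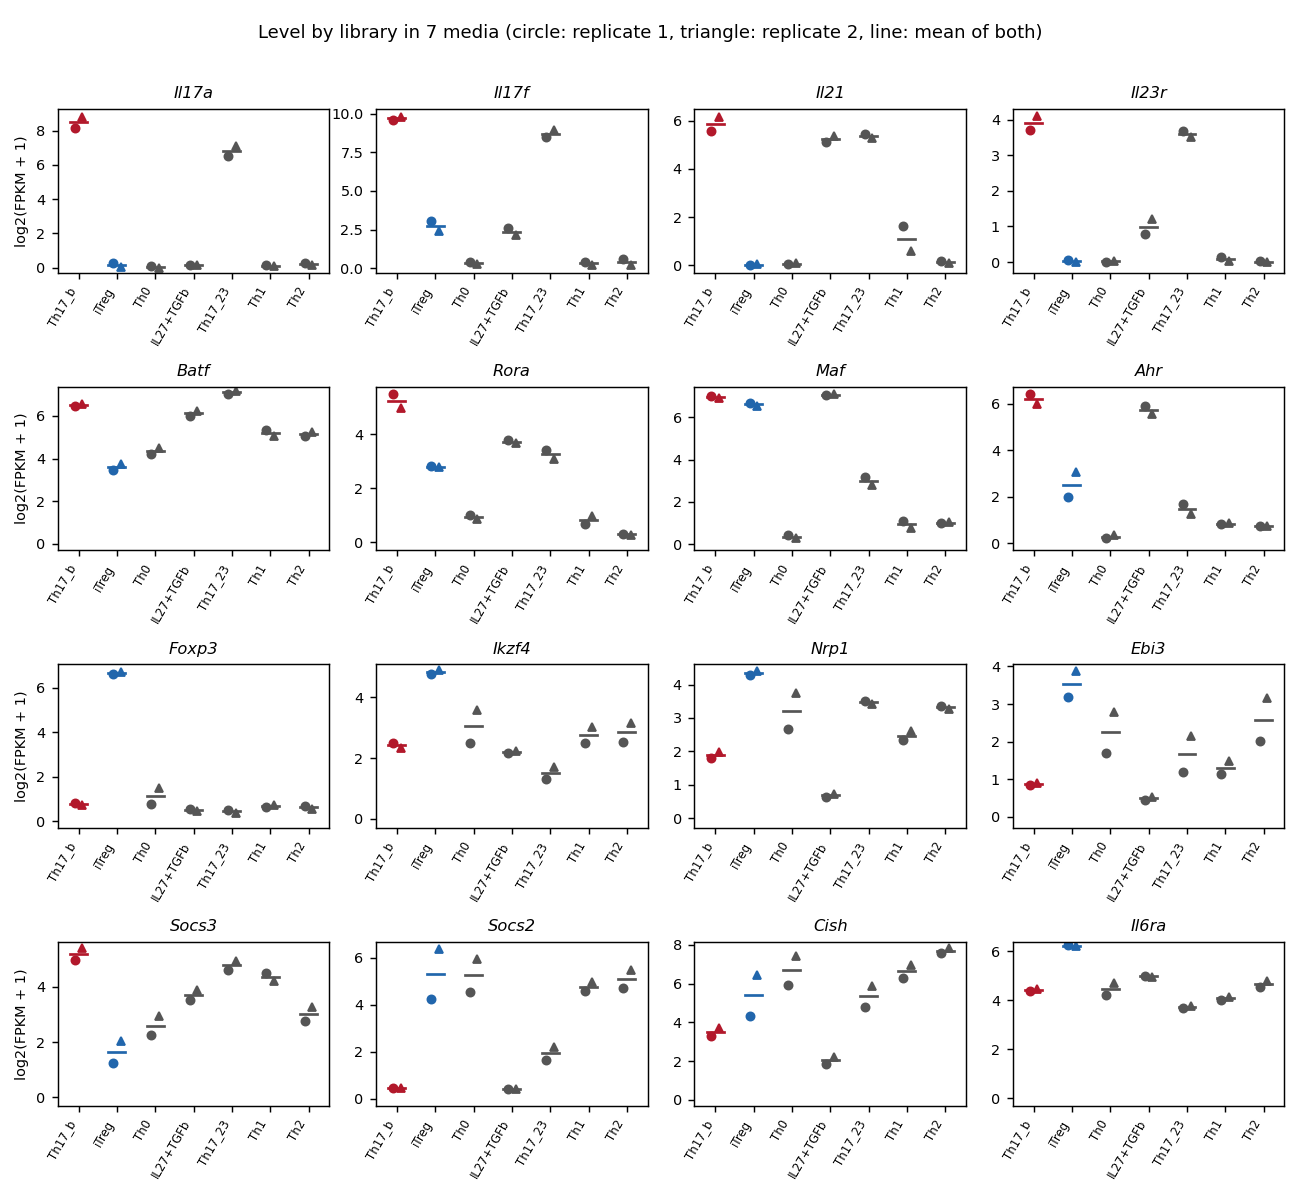
Level of 16 genes as log2(FPKM + 1) (y axis) in each library of the 7 media (x axis), with a circle for replicate 1, a triangle for replicate 2 and a line for their mean. Il17a, Il17f, Il21 and Il23r were high in Th17_b (red) and low in iTreg (blue), Maf was high in both, and Foxp3 was high in iTreg alone. Socs2 and Cish of iTreg, Th0, Th1, Th2 and Th17_23 were higher in replicate 2 than in replicate 1.

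Tested target genes of the aryl hydrocarbon receptor were higher in Th17_b, as its own gene was. This receptor binds environmental and dietary ligands and induces the enzymes that clear them. Cyp1a1, the classic target, stood at 11.9 and 11.2 FPKM in Th17_b and at 0.977 and 1.04 in iTreg (2.64 ± 0.10). Tiparp, a feedback inhibitor, stood at 16.5 and 16.9 FPKM against 2.196 and 2.36 (2.43 ± 0.11), and Ahrr, the receptor's repressor, at 3.19 and 3.53 against 0.902 and 1.20 (1.09 ± 0.08). Cyp1b1 stood at 6.52 and 4.64 FPKM in Th17_b and was listed at 0 in both iTreg libraries. It reached 1 FPKM through Th17_b alone and so had to differ. Of the 6 tested genes of this list, which includes Ahr and its partner Arnt, 5 rose and 1 fell, with a median change of 2.54. Of all genes, 39.1% were higher and 22.5% lower. The list member that fell was Arnt, the dimer partner, at 16.9 and 15.4 FPKM against 18.1 and 18.8 (-0.18 ± 0.06). Its change was -0.11 without Th17_b replicate 2.

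The receptors through which the media act did not all move with them. Il6ra, which encodes the chain that binds IL-6, was lower in Th17_b, the medium that contains IL-6, at 19.6 and 20.7 FPKM against 74.6 and 72.1 in iTreg (-1.82 ± 0.12, adjusted p = 1.9e-06). Th0 stood at 17.6 and 25.0 FPKM, from which Th17_b did not differ by the test (-0.06, adjusted p = 0.70) and iTreg did (1.76, adjusted p = 2.8e-06). Il6st, which encodes gp130, stood at 36.5 and 27.6 FPKM against 34.2 and 30.7, with overlapping groups and a change of -0.03 ± 0.12. Il2ra, the high-affinity chain of the IL-2 receptor and CD25 of the sort, stood at 154 and 147 FPKM against 141 and 256 and was not called (-0.34 ± 0.32, adjusted p = 0.39). The iTreg replicates of Il2ra lay on both sides of the Th17_b values. Il2rg, the common γ chain, and Jak3, the kinase bound to it, rose by log2 changes of 0.46 ± 0.09 and 0.83 ± 0.09, while Stat5a and Stat5b fell by 0.51 ± 0.11 and 0.62 ± 0.11. Some genes for receptors of cytokines that act later on Th17 cells were higher in Th17_b. Il1r1, a receptor of IL-1, stood at 48.4 and 43.9 FPKM against 0.187 and 0.0689 (5.39 ± 0.08). Il23r, the specific chain of the IL-23 receptor, stood at 12.1 and 16.1 FPKM, with 0.0334 and 0 listed in iTreg, and Il12rb1, its partner chain, at 27.5 and 31.2 against 8.30 and 11.0. Il17re, a receptor of IL-17C, stood at 9.38 and 9.58 FPKM against 1.51 and 0.469. Il18r1, an interleukin 18 receptor gene, was lower, at 7.03 and 10.5 FPKM against 55.1 and 39.4 (-2.31 ± 0.20). Cd38, an ectoenzyme, stood at 1.33 and 0.904 FPKM against 16.3 and 22.2 and fell with Il6ra (-3.25 ± 0.16). Of 11 tested Th17 receptors and surface genes, 5 rose and 4 fell, 3 having reached 1 FPKM through Th17_b alone, and Ccr6, which guides Th17 cells to Ccl20, was not called, at 49.2 and 46.8 FPKM against 51.3 and 35.3. Th0 stood at 0.397 and 0.884 FPKM for Ccr6, so it was high in both media with TGF-β.

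The feedback inhibitors of cytokine signalling moved apart. The SOCS family and Cish are induced by STAT factors and switch off cytokine receptors. Socs3, which STAT3 induces and which blocks gp130, stood at 30.3 and 41.3 FPKM in Th17_b and at 1.35 and 3.14 in iTreg (3.54 ± 0.21, adjusted p = 1e-06). Socs2, a STAT5 target, stood at 0.359 and 0.375 FPKM against 18.1 and 81.2 (-4.86 ± 0.44). Cish, another STAT5 target, stood at 8.75 and 12.3 FPKM against 19.4 and 86.8. The fall of Cish was -1.89 ± 0.39 (adjusted p = 0.0021), but -1.20 without iTreg replicate 2. For both genes the iTreg libraries lay more than 4 times apart, with replicate 2 higher. Replicate 2 of Th0 was also the higher one, at 61.4 against 22.3 FPKM for Socs2 and 172 against 60.5 for Cish. The same held for both genes in Th1, Th2 and Th17_23, a medium with IL-1β, IL-6 and IL-23. In that order, Cish stood at 124.9 against 78.1, 229 against 189 and 57.5 against 27.1 FPKM. The cause was not tested. Th0 held an antibody to IL-2 and iTreg held IL-2. Socs1 stood at 51.1 and 60.7 FPKM against 13.5 and 26.9 (1.495 ± 0.24), and the remaining 4 members, Socs4 to Socs7, had changes between -0.08 and 0.01 and were not called.

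Most tested genes of the list for STAT3 were higher in Th17_b, while those of the list for STAT5 went both ways. Of 14 tested IL-6 and STAT3 response genes, 10 were higher and 1 lower in Th17_b, beside 39.1% and 22.5% of all genes. The median change was 0.95, and the counts were the same after quantile normalization. Besides Socs3 the higher genes included Bcl3, a nuclear IκB protein, at 40.3 and 49.7 FPKM against 7.70 and 11.4 (2.14 ± 0.25). Stat3 itself stood at 106.6 and 101.6 against 56.2 and 62.6 (0.80 ± 0.09). The gene that fell was Vim, at 345 and 393 FPKM against 526 and 840. Of 18 tested IL-2 and STAT5 response genes, 6 were higher and 6 lower, with a median of -0.16, so both directions were present, as among all genes. Of these 18, 1 reached 1 FPKM through Th17_b alone and 2 through iTreg alone, and so had to differ. With Socs2 and Cish, Il10ra, a chain of the IL-10 receptor, was lower, at 0.144 and 0.441 FPKM against 7.88 and 10.1 (-2.95 ± 0.18), as was Lta, which encodes lymphotoxin, at 9.21 and 11.2 against 38.2 and 72.5. The call of Lta was lost without Th17_b replicate 2 (adjusted p = 0.112) or iTreg replicate 1 (adjusted p = 0.0676). Bcl2, the survival factor, was lower at 5.32 and 5.58 FPKM against 9.91 and 16.7 (-1.11 ± 0.18). The higher genes included Cdk6, a kinase of the early cell cycle, at 20.9 and 17.1 FPKM against 1.68 and 2.80 (2.64 ± 0.23), Myc, at 91.5 and 86.0 against 19.2 and 50.6, and Nfil3, at 9.33 and 10.6 against 2.40 and 3.63. Il2 itself stood at 0.516 and 1.72 FPKM in Th17_b, against 0.0346 and 0 listed in iTreg. Its call (adjusted p = 0.046) was lost without Th17_b replicate 2 (0.53, adjusted p = 0.36), without either iTreg library (adjusted p 0.12 and 0.14) and after quantile normalization (adjusted p = 0.081).

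More genes of the TGF-β list were lower than higher in Th17_b. Of 23 tested receptors, SMADs and response genes, 13 were lower and 5 higher, beside 22.5% and 39.1% of all genes. The median was -0.32, and the counts were the same under both other scalings. Without Th17_b replicate 2, 9 were lower. Tgfbr2, the receptor chain that binds the ligand, stood at 30.1 and 25.5 FPKM against 69.9 and 54.4 (-1.12 ± 0.10). Smad7, an inhibitor that the pathway induces against itself, stood at 15.6 and 12.5 FPKM against 29.7 and 25.4 (-0.93 ± 0.10), with 2.97 and 2.61 in Th0. Skil, another induced inhibitor, stood at 30.1 and 24.4 FPKM against 62.8 and 60.6. Ccr8, a chemokine receptor placed on this list, stood at 25.9 and 18.5 FPKM against 213 and 174 (-3.08 ± 0.20). Smad3, a transducer of the signal, went the other way, at 28.1 and 28.5 FPKM against 5.79 and 9.27 (1.81 ± 0.14). Id2, a helix-loop-helix inhibitor that is part of the list, stood at 156 and 171 FPKM against 9.16 and 17.8 (3.57 ± 0.21). Itgae, the CD103 chain that TGF-β induces, stood at 6.10 and 4.69 FPKM against 10.3 and 2.85, where the iTreg libraries enclosed those of Th17_b, and was not called.

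Genes of regulatory T cells fell beside Foxp3, with exceptions. Of 23 tested, 14 were lower and 3 higher in Th17_b, with a median of -0.76, and after either other scaling 15 were lower and 2 higher. Of the 23, 6 reached 1 FPKM through iTreg alone and 1 through Th17_b alone, and so had to differ. Ikzf4, which encodes Eos, a corepressor of Foxp3, stood at 4.63 and 4.11 FPKM against 26.2 and 29.0 (-2.41 ± 0.24). Nrp1, a co-receptor for semaphorins and TGF-β, stood at 2.51 and 2.95 FPKM against 18.4 and 20.3 (-2.45 ± 0.23), and Ebi3, a subunit of IL-27 and IL-35, at 0.810 and 0.851 against 8.17 and 13.7 (-2.67 ± 0.27). Lrrc32, which encodes GARP and holds latent TGF-β at the surface, stood at 0.0262 and 0.0349 FPKM against 5.00 and 16.4, again with iTreg replicate 2 higher. In Th0 it stood at 3.65 and 19.6 FPKM. Not every lower member was raised in iTreg over Th0. Ikzf4, Nrp1 and Ebi3 were (log2 changes of 1.78, 1.13 and 1.29). Izumo1r and Tnfrsf18, also lower in Th17_b, had means of 407 and 275 FPKM in Th0 and of 111 and 69.7 in iTreg. Among the ectoenzymes that make adenosine, Entpd1, or CD39, stood at 0.0828 and 0.111 FPKM against 3.09 and 5.74 (-2.26 ± 0.17). Nt5e, or CD73, which follows it in the pathway, was high in both media at 230 and 197 FPKM against 416 and 296, with 5.68 and 5.17 in Th0. Ctla4, the inhibitory receptor on which regulatory T cells rely, was higher in Th17_b, at 206 and 266 FPKM against 104.9 and 112.0 (1.11 ± 0.14, adjusted p = 0.00012). Th0 stood at 155 and 180 FPKM, so Ctla4 was lower in iTreg than in Th0 (-0.62, adjusted p = 0.0032). Ikzf2, or Helios, stood at 1.27 and 0.950 FPKM against 1.09 and 0.983 and was not called.

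The 15 largest falls held more than regulatory genes. Irf8, a factor of the interferon regulatory family, stood at 3.03 and 3.09 FPKM in Th17_b and at 76.1 and 100.3 in iTreg (-4.45 ± 0.25). Nupr1, a stress-induced nuclear protein, stood at 0.340 and 0.151 FPKM against 36.2 and 54.2 (-5.19 ± 0.33). Atp1b1, which encodes a subunit of the sodium-potassium pump, stood at 3.39 and 2.83 FPKM against 82.6 and 103.3 (-4.51 ± 0.21). Ncf1, a subunit of the phagocyte NADPH oxidase, stood at 0.329 and 0.489 FPKM against 19.5 and 37.8, and Eno3, an enolase isoform best known from muscle, at 4.48 and 4.65 against 75.2 and 73.5 (-3.76 ± 0.10). The other named falls, from -4.86 to -3.68, were Socs2, Ifi203, Scd1, Rnase4, Mndal, Phyhd1, Treml2 and Plekhd1. Rnase4 overlaps the gene Ang, so their reads cannot be told apart without strand. Ifi203 and Mndal belong to a cluster of similar interferon-inducible genes, and the levels of such near-identical genes are uncertain. Of all genes, 55.1% differed from Th0 in Th17_b (28.4% lower) and 64.4% in iTreg (24% higher). Of these 15 genes, 11 were lower than Th0 in Th17_b and 11 were higher in iTreg. The 15 were chosen by values of these same Th17_b and iTreg libraries, so these counts were partly set by the choice. Both contrasts against Th0 also share the Th0 libraries. Genes such as Irf8, Nupr1 and Atp1b1 were called in both, with Th0 between the media, at 6.23 and 10.3, 2.79 and 9.09, and 9.23 and 13.8 FPKM. Foxp3, Plekhd1 and Rnase4 did not pass 1.83 FPKM in either Th0 library, and among these 3 media they were high in iTreg alone. Ncf1, Scd1, Mndal and Socs2 did not differ by the test between iTreg and Th0.

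The 15 largest rises were genes high in Th17_b and low in both Th0 and iTreg, where Il17f in iTreg, at 7.24 FPKM, was the highest value. All 15 were higher in Th17_b than in Th0, beside 26.7% of all genes. The iTreg medium was higher than Th0 for 6, lower for 3 and not called for 6, beside 24% and 40.3% of all genes. The 15 were chosen by values of these same Th17_b and iTreg libraries, so their position against Th0 was partly set by the choice. Some of them, such as Il21, Pltp and Il1r1, reached 1 FPKM through Th17_b alone and so had to differ between the media. Ly6a, the surface antigen Sca-1, stood at 208 and 372 FPKM against 1.31 and 1.18 (6.96 ± 0.24), although members of its family are alike and their levels uncertain. Cd24a, a surface glycoprotein, stood at 117 and 119 FPKM against 1.54 and 0.769 (5.81 ± 0.20). Pltp, a lipid transfer protein, stood at 42.3 and 31.6 FPKM against 0.127 and 0.0595, and Tox2, a factor of the high mobility group, at 44.9 and 39.8 against 1.18 and 0.259. Timp1, an inhibitor of metalloproteinases, stood at 52.98 and 62.9 FPKM against 0.708 and 1.49 (in a place that overlaps the gene Syn1), and Serpinb1a, an inhibitor of serine proteases, at 33.8 and 41.3 against 1.26 and 0.519. Serpinf1, a secreted serpin, stood at 25.9 and 36.5 FPKM against 1.16 and 0.469. Tmem176a and Tmem176b, adjacent genes whose transcripts overlap, rose by 4.66 ± 0.10 and 4.70 ± 0.13, and their reads cannot be told apart without strand. The others were Il17a, Il17f, Il21, Il1r1, the integrin chain Itga3 (4.14 ± 0.15) and Crispld2 (4.10 ± 0.17). A further 12 called genes with changes of 2 or more carry names without a symbol of their own and are counted only.

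A palindrome that STAT factors bind, TTCNNNGAA, was looked for in the 250 bases before each start that RefSeq annotates, in the table's build GRCm38.p6, together with the AP-1 motif TGANTCA. Both read the same on either strand, were searched separately and may overlap. TTCNNNGAA was present for 7.17% of the tested genes with a promoter and 8.13% of all genes with one. The shares were 7.47% among genes that rose by 1 or more and 10.7% among those that fell by 1 or more. Promoters were matched for 12 of the 15 largest rises and 11 of the 15 largest falls. None of those 12 rises held the motif, and 5 of those 11 falls (45.5%) did. TGANTCA was present for 4.98% of the tested genes and 7.82% of all genes, for 1 of the 12 rises, Il17a, and for 3 of the 11 falls. Windows for the 5 falls and for Socs3, the target of STAT3, are printed because they hold the matches, each running 5′ to 3′ along the gene's strand up to the start, with TTCNNNGAA in capitals. Where a gene has several starts, the window with the match is given. A match describes these letters and is not evidence of binding.
Foxp3, chrX:7580303-7580482, plus strand: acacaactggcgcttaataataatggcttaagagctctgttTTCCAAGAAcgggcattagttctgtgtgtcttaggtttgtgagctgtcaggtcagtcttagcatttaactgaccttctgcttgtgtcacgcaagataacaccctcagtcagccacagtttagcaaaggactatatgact
Irf8, chr8:120736178-120736357, plus strand: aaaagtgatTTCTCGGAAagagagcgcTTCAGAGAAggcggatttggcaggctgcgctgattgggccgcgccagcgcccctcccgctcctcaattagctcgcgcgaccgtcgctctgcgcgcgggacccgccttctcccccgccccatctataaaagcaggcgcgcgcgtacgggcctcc
Nupr1, chr7:126625471-126625650, minus strand: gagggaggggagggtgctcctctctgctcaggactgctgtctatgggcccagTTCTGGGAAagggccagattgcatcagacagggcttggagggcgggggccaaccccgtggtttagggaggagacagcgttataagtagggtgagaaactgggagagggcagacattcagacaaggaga
Ncf1, chr5:134229626-134229805, minus strand: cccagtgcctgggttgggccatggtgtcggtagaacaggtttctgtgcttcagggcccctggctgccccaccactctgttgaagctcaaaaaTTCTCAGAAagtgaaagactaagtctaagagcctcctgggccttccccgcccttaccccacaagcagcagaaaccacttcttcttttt
Phyhd1, chr2:30266023-30266202, plus strand: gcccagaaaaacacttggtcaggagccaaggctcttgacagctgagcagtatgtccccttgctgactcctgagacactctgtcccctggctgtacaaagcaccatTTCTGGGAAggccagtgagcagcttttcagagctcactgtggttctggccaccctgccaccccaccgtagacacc
Socs3, chr11:117969367-117969546, minus strand: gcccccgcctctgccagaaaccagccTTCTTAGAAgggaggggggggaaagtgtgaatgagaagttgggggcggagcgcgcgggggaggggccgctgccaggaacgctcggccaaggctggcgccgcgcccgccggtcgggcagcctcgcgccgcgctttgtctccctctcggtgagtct
The matches begin 139 bases before the start in Foxp3, 171 and 153 in Irf8, 128 in Nupr1, 88 in Ncf1, 75 in Phyhd1 and 154 in Socs3. The genes were chosen for holding a match, so the windows show no relation of the motif to a direction.

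Metabolic genes differed by pathway. Of 24 tested glycolysis and hypoxia response genes, 18 were higher and 2 lower in Th17_b, with a median change of 0.89, and the counts were the same after either other scaling. Hk2, the inducible hexokinase that commits glucose to the pathway, stood at 10.4 and 12.6 FPKM against 0.984 and 2.38 (2.27 ± 0.20). Pfkl, a phosphofructokinase, stood at 59.5 and 62.8 FPKM against 10.4 and 18.4 (2.07 ± 0.19), Tpi1 at 506 and 590 against 86.9 and 176, and Ldha, which makes lactate, at 1143 and 1240 against 445 and 596. In each of these genes iTreg replicate 2 was above replicate 1 and still under both Th17_b libraries. The iTreg medium was lower than Th0 for Hk2 (-2.32, adjusted p = 1.2e-05), while Th17_b did not differ from Th0 by the test (-0.06, adjusted p = 0.82). Isoforms of 1 enzyme could go apart. Eno1 stood at 425 and 498 FPKM against 184 and 285, while Eno3 fell (-3.76). Eno3 is not on this list, so the counts above leave it out. Aldoa stood at 689 and 735 FPKM against 350 and 538, while Aldoc stood at 6.91 and 7.68 against 12.9 and 32.4. The other lower member was Vegfa, at 3.96 and 5.22 FPKM against 5.64 and 15.2 (-0.90), a fall of -0.525 without iTreg replicate 2.

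Sterol and amino acid supply genes went the other way. Of 25 tested sterol and fatty acid synthesis genes, 17 were lower and 2 higher in Th17_b, with a median of -0.69; the lower count was 20 under either other scaling and 13 to 21 when 1 library was left out. Scd1, a desaturase that makes monounsaturated fatty acids, stood at 0.453 and 1.25 FPKM against 15.2 and 49.3 (-3.98 ± 0.27), and its relative Scd2 at 59.2 and 87.1 against 273 and 369 (-2.13 ± 0.12). Insig1, which retains the sterol-sensing machinery in the endoplasmic reticulum, stood at 41.9 and 46.3 FPKM against 99.6 and 129 (-1.35 ± 0.12). Mvd and Fdps of the mevalonate pathway fell by 1.60 and 1.32 on the log2 scale. Acly, with a change of 0.32 that was 0.104 without iTreg replicate 1 and was not called then or without either Th17_b library, was among the 2 higher genes, and none or 1 was higher under the other scalings. Fasn, Acaca and Srebf1, which serve fatty acid synthesis, were not called. Of 19 tested genes of ATF4 and amino acid supply, 11 were lower and 1 higher, with a median of -0.49, and 9 to 13 were lower when 1 library was left out and 14 under either other scaling. ATF4 is the factor of the integrated stress response, and Atf4 itself was not called, at 67.8 and 84.0 FPKM against 55.3 and 90.4. Asns, asparagine synthetase and a classic target, stood at 4.40 and 5.79 FPKM against 25.3 and 50.8 (-2.61 ± 0.18), with 104.9 ± 18.9 (SD, n = 2) in Th0. Trib3, a pseudokinase target, stood at 1.22 and 1.64 FPKM against 9.37 and 12.3 (-2.28 ± 0.10). The higher gene was Slc7a11, the cystine transporter, at 1.86 and 2.14 FPKM against 1.06 and 1.62 (0.37, adjusted p = 0.0252), and its call was lost after median scaling (adjusted p = 0.0524) and without either Th17_b library or iTreg replicate 1 (adjusted p 0.0535 to 0.224).

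**Figure D3:**
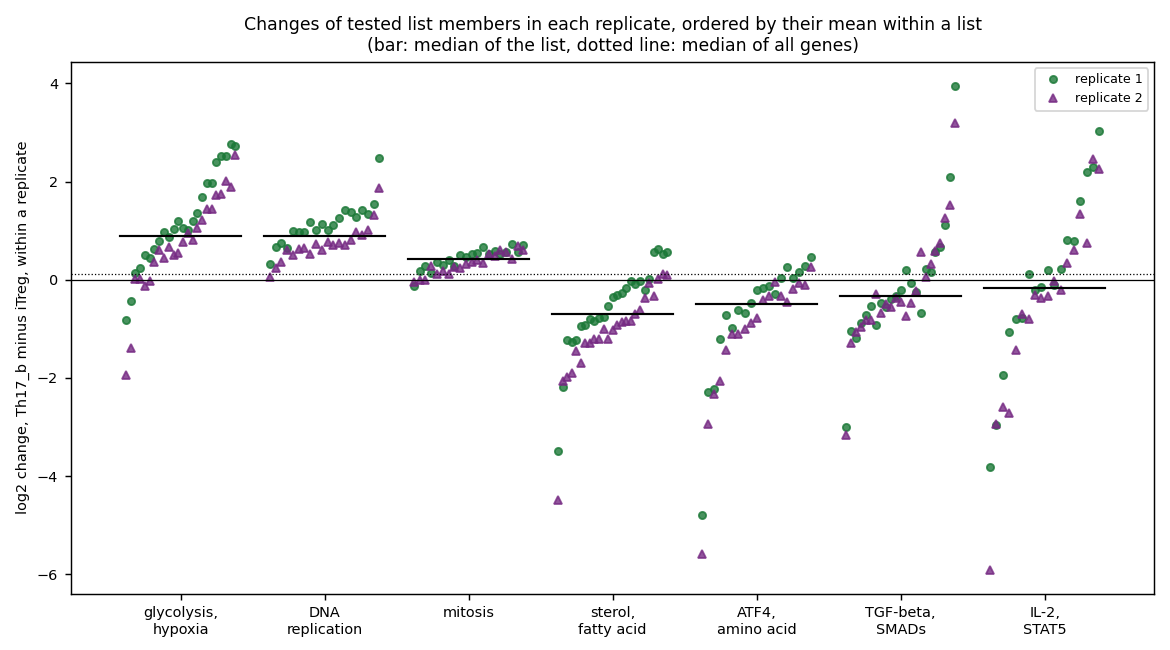
Log2 change of Th17_b minus iTreg within each replicate (y axis) for the tested genes of 7 lists (x axis), ordered by their mean within a list, with green circles for replicate 1, purple triangles for replicate 2 and a bar for the list median. DNA replication genes lay above 0 in both replicates (median 0.88), sterol and fatty acid genes mostly under 0 (median -0.69), and changes of glycolysis and sterol genes were mostly higher in replicate 1 than in replicate 2.

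Cell cycle genes were higher in Th17_b, those of replication more than those of mitosis. Of 20 DNA replication genes, 19 were higher and none lower, with a median of 0.88, and 18 were higher under either other scaling. Mcm3, a subunit of the replicative helicase, stood at 202 and 206 FPKM against 35.4 and 55.9 (2.17 ± 0.17), above its fellow subunits Mcm2, Mcm4 and Mcm5 with changes of 1.13 to 1.18, and Mcm6 was not called. Rfc3, a subunit of the clamp loader, stood at 35.7 and 40.3 FPKM against 11.5 and 15.6 (1.43 ± 0.13). Of 20 mitosis genes, 15 were higher and none lower, with a median of 0.42 that compares with 0.12 for all genes, and 11 were higher and 1 lower under either other scaling. Cdc20, an activator of the anaphase-promoting complex, stood at 81.2 and 95.4 FPKM against 54.6 and 59.0 (0.62 ± 0.10). Relative to Th0, Mcm5 was lower in iTreg (-1.29, adjusted p = 2.6e-05) and not called in Th17_b (-0.11, adjusted p = 0.46).

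Genes of other helper lineages were low or mixed. Tbx21, which encodes T-bet of Th1 cells, and Ifng did not pass 0.296 FPKM in any of the 4 libraries. Gata3, the factor of Th2 cells, stood at 3.11 and 3.82 FPKM against 10.9 and 10.9 (-1.42 ± 0.12), and iTreg did not differ from Th0 by the test. Of 9 tested Th1 genes 5 were higher and 3 lower, and of 8 tested Th2 genes 4 were higher and 3 lower, with 1 more lower in each list under either other scaling. Of the Th1 genes, 2 reached 1 FPKM through Th17_b alone and 2, Nkg7 among them, through iTreg alone. Csf1 of the Th2 list reached it through Th17_b alone. These genes had to differ. Nkg7, a granule protein on the Th1 list, stood at 0.157 and 0.157 FPKM against 11.3 and 9.35 (-3.28 ± 0.20). Csf1, the growth factor of macrophages, stood at 14.3 and 22.1 FPKM against 0.626 and 0.559 (3.56 ± 0.28). Of 13 tested follicular helper genes 7 were higher and 2 lower, beside 39.1% and 22.5% of all genes, with a median of 0.44. The higher ones included Il21, Tox2 and Pou2af1, a coactivator of octamer factors at 124 and 126 FPKM against 27.7 and 9.83. Il21 and Tox2 reached 1 FPKM through Th17_b alone and so had to differ. Bcl6, the defining factor of follicular helper cells, stood at 26.5 and 24.6 FPKM against 29.8 and 12.8 and was not called.

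Surface receptors and secreted factors held an outsized share of the large changes. The deposited tables annotate each transcript with a type and a location, and called changes of 1 or more were counted by them beside 10.7% of all genes. Transmembrane receptors reached 31.8%, with 11 genes higher and 31 lower of 132, and G-protein coupled receptors 28.9%, with 11 higher and 11 lower of 76. Cytokines reached 29.8%, with 9 higher and 5 lower of 47, and ligand-dependent nuclear receptors 38.1% of 21 genes. Transcription regulators as a class stood at 9.22% of 803 and translation regulators at 7.41% of 81. By location, plasma membrane genes reached 24.1% and extracellular ones 24.5%, against 8.52% for the nucleus. These shares carry no test.

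Homing and adhesion receptors differed in both directions. Of 18 tested chemokine and homing receptors, 7 were higher and 8 lower in Th17_b, beside 39.1% and 22.5% of all genes. The higher share is near that of all genes. Of the 18, 1 reached 1 FPKM through Th17_b alone and 1 through iTreg alone, and so had to differ. Gpr15, a receptor that guides T cells to the large intestine, stood at 63.8 and 63.0 FPKM against 3.19 and 5.98 (3.57 ± 0.18), and Gpr183, a receptor of oxysterols, at 13.9 and 16.9 against 1.10 and 1.38 (2.87 ± 0.16). Cxcr6, found on T cells of tissues, stood at 32.3 and 33.1 FPKM against 7.98 and 3.39. Cx3cr1, the fractalkine receptor, stood at 0.362 and 0.152 FPKM against 9.55 and 6.26 (-2.81 ± 0.14). Ccr7, which lets naive cells enter lymph nodes, stood at 152 and 149 FPKM against 253 and 237. Genes of quiescence and lymphoid homing fell as a list, with 10 of 16 lower and 4 higher and a median of -0.49. Klf2, the factor that maintains S1pr1 and Ccr7 expression, stood at 17.8 and 21.9 FPKM against 72.7 and 73.3 (-1.83 ± 0.20), and Klf3 at 1.80 and 1.90 against 12.1 and 16.9. Satb1, a chromatin organizer, was an exception at 181 and 190.0 FPKM against 32.7 and 29.8 (2.54 ± 0.12), and so was Bach2, a repressor that restrains effector genes (1.29 ± 0.12).

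Costimulatory and inhibitory receptors showed both directions. Cd28, the receptor that the plate-bound antibody engages, stood at 208 and 226 FPKM against 90.5 and 75.2 (1.38 ± 0.11), and its relative Icos at 71.6 and 81.9 against 30.3 and 29.1 (1.34 ± 0.16). Cd226, an activating receptor, stood at 0.508 and 0.698 FPKM against 7.80 and 9.34 (-2.58 ± 0.10). Of 21 tested costimulatory and TNF family genes 9 were higher and 7 lower, but 8 and 9 after quantile normalization. Of all genes, 39.1% were higher and 22.5% lower. Of the 21, 1 reached 1 FPKM through Th17_b alone and 2 through iTreg alone, and so had to differ. Of 12 tested coinhibitory receptors 6 were higher and 3 lower. Of these 12, 2 reached 1 FPKM through Th17_b alone and so had to differ. Among the higher were Lag3, a receptor of MHC class II, at 135 and 132 FPKM against 60.7 and 33.05 (1.55 ± 0.20), and Pdpn, podoplanin, at 29.6 and 29.6 against 3.74 and 5.77 (2.43 ± 0.14). Pdcd1, or PD-1, stood at 72.0 and 77.9 FPKM against 117 and 116 (-0.63 ± 0.09). Of the CD4 T cell markers themselves, 2 of 10 were higher and 5 lower (6 or 7 under the other scalings), and Cd4 stood at 137 and 157 FPKM against 244 and 262 (-0.78 ± 0.07).

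**Figure D4:**
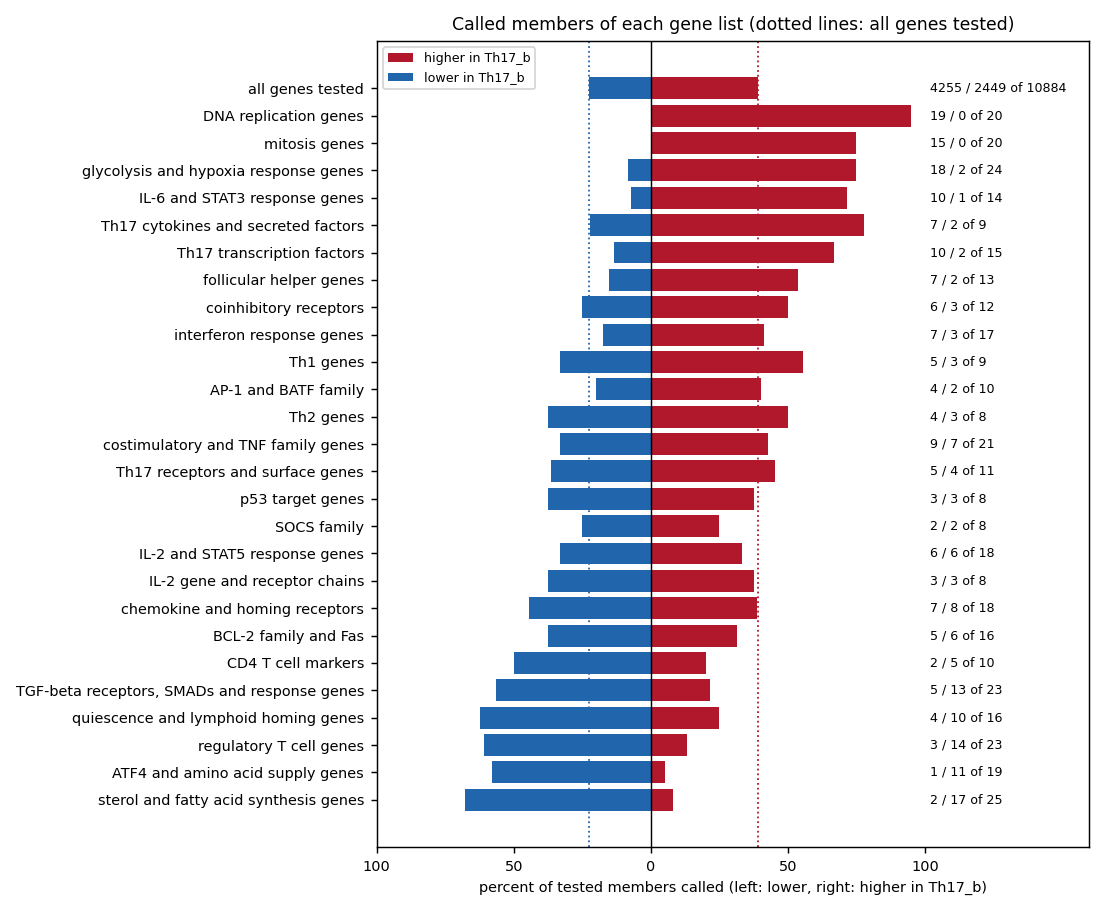
Percent of tested members called higher (red, to the right) and lower (blue, to the left) in Th17_b for each list with 8 or more tested genes, with counts as higher / lower of tested and dotted lines at the 39.1% and 22.5% of all genes. DNA replication genes (19 / 0 of 20) stand at the top and sterol and fatty acid synthesis genes (2 / 17 of 25) at the bottom.

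Of 17 tested interferon response genes, 7 were higher and 3 lower, but 7 and 6 under either other scaling. The counts of this paragraph stand beside 39.1% higher and 22.5% lower for all genes, and several lie near these shares. Irf8 and the guanylate-binding protein gene Gbp2 lay at the ends of the interferon list. Gbp2 stood at 76.3 and 91.6 FPKM against 5.97 and 7.90 (3.43 ± 0.13), and its copies are similar enough that its level is uncertain. Of 16 genes of the BCL-2 family and Fas, 5 were higher and 6 lower, and 9 lower under either other scaling. The killers Bax and Bak1 were higher, with changes of 0.93 ± 0.15 and 0.72 ± 0.08, while Bmf and Bcl2l11, which trigger them, fell to 1.02 and 1.12 FPKM against 6.91 and 6.59 (-1.90 ± 0.09) and to 3.10 and 4.07 against 15.6 and 14.2 (-1.80 ± 0.16). Of 10 tested AP-1 and BATF genes 4 were higher and 2 lower, Junb among the higher at 135 and 189 FPKM against 39.9 and 88.3 (1.41 ± 0.27). Of 8 IL-2 and IL-2 receptor genes 3 were higher and 3 lower, and of 7 tested gp130 receptors and ligands also 3 and 3. Of 6 tested cytotoxic genes 1 was higher and 3 lower, and 1 and 4 under either other scaling. Of these 6, 2 genes, Nkg7 and Serpinb6b, reached 1 FPKM through iTreg alone and so had to be lower in Th17_b. Gzmb, a granzyme gene, stood at no more than 0.0587 FPKM. Of 8 p53 target genes 3 were higher and 3 lower. Of 6 tested immediate early and heat shock genes 2 were higher, the chaperone genes Hsph1 (1.31 ± 0.10) and Dnajb1 (0.66 ± 0.09), and none lower. Of the marker lists, 1 of 6 B cell genes, 2 of 8 myeloid genes and 1 of 5 natural killer genes were tested, and all 4 were lower. Cd79a of B cells (1.16 and 1.02 FPKM in iTreg, 0.422 and 0.141 in Th17_b) and Itgam of myeloid cells (0.311 and 0.296 against 2.55 and 0.900) were among them. Cd79a, Itgam and the natural killer gene Klrd1 reached 1 FPKM through iTreg alone and so had to be lower in Th17_b. The fall of Itgam was -0.99 ± 0.22 but -0.52 without iTreg replicate 1. Cd8b1 was not called, and no dendritic or erythroid marker reached the level for testing.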

How the data were processed

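The values are FPKM per transcript in 14 libraries, which the authors deposited as 2 tables, 1 for each replicate number. The submitters' processing notes name Cufflinks 1.3.0, TopHat2 2.0.3 and the build mm9 without their roles, and the sources used here do not give how FPKM were scaled between tables. Of 30028 transcripts, 29028 (96.67%) were named by accession, 233 by symbol, and 767 stand for themselves. FPKM were summed per gene, genes reaching a mean of 1 FPKM in at least 1 of both media were kept, and log2(FPKM + 1) was fitted with limma 3.58.1 (R 4.3.3) over the 7 media, with the table as a block, a trended prior and Benjamini-Hochberg adjustment over all tested genes. The absolute depth is not known, and only the relative depth could be read from the steps of low values. The text names the 15 largest rises and falls, up to 4 members of each of 36 lists and 30 lineage genes; other list members were picked after their values were seen. Some genes that these rules choose are not reported here, but they count in the totals. Members and lists were chosen with earlier results of these data known. Promoters come from RefSeq on GRCm38.p6, with no coordinate taken from mm9.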

Additional observations from a re-analysis of the deposited data

How the results depend on the processing

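The count of called genes, 6704, kept within 1.5 times under every alternative run, from 5108 to 6406 when 1 library was left out and 5433 of 8480 genes with a filter at 5 FPKM to 7168 with none. With the spread taken from the libraries of these groups alone, limma called 5559 genes. The adjusted p of Il17a was then 0.00076, against 1.5e-08 in the main fit. The table as a block was part of the model. Without the replicate block 6022 genes were called, 6020 of them among the 6704. Replicate numbers are not known to pair the samples: deviations of same-numbered libraries correlated at 0.193 for these media, and over 0.1 in 15 of 21 pairs of media. Of 135 called genes chosen by the naming rules, 126 were also tested with the filter at 5 FPKM. Under every alternative that tested them, 132 of the 135 kept their call and direction. The exceptions were Maf, Il2 and Mafg, whose adjusted p was 0.055 without the replicate block. Among called genes the text names beside these, Tnf, Arnt, Acly, Slc7a11, Lta and Runx1 lost their call when some library was left out, and Tnf, Lta and Vegfa without the replicate block (adjusted p 0.117, 0.059 and 0.088). Reversals arose only among genes that were not called. Ikzf2 was -0.03 after median scaling, -0.015 after quantile normalization, -0.158 without Th17_b replicate 1, 0.252 without Th17_b replicate 2 and -0.075 without iTreg replicate 2. Itgae was 0.092 with the highest transcript per gene and 0.715 without iTreg replicate 1 (adjusted p = 0.0032; -0.825 without iTreg replicate 2). Ccr6 was -0.253 without iTreg replicate 2 and 0.590 without iTreg replicate 1. Il6st was 0.102 without Th17_b replicate 2 and -0.161 without Th17_b replicate 1. Hspa8 was 0.060 after quantile normalization. Cd8b1 was -0.120 after median scaling, -0.100 after quantile normalization, -0.065 without Th17_b replicate 2, -0.107 without iTreg replicate 2 and 0.117 without iTreg replicate 1. The causes were not tested. With 2 libraries per medium and FPKM without counts, the precision of low genes is not known.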

Other observations

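Large changes also fell on neighbouring genes, a pattern noticed in the data and described without a test. Among 6576 pairs of neighbouring genes that were both tested, 13 pairs had both members called with a log2 change of 2 or more, and in 13 of these both changed in the same direction. In 3 pairs the genes overlap, so that their reads cannot be told apart without strand: Rnase4 and Ang, Tmem176b and Tmem176a, and Syn1 and Timp1. Beside Il17a and Il17f, the next gene, Mcm3, rose by 2.17. The interleukin 18 receptor genes Il18r1 and Il18rap fell by 2.31 and 2.06, and H2-DMa and H2-DMb2, which load peptides onto MHC class II, fell by 2.14 and 2.31. Gpr15 and its neighbour Cpox, an enzyme of haem synthesis, rose by 3.57 and 2.46, and the metallothionein genes Mt1 and Mt2 by 2.41 and 2.02.

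Summing transcripts hid opposite changes in 4 of 1780 genes with 2 or more transcripts at 1 FPKM or more: Satb1, Lims1, Celf2 and Tcf12. For Lims1, an adaptor of integrin signalling, a first transcript was listed at 23.6 and 24.6 FPKM in Th17_b and at 7.88 and 5.09 in iTreg, and a second at 12.4 and 11.2 against 35.8 and 31.0. For Satb1, 1 transcript was listed at 5.39 and 4.80 FPKM against 15.1 and 16.1, while the others were higher in Th17_b. Such values rest on how reads were split between transcripts.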
